A study of Homo sapiens with 4 samples.

Results

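The human mitochondrial chromosome carries 37 genes, and all 37 were followed here in SY5Y cells after exposure to SGSS05-NS, a covalent inhibitor of the histone methyltransferase SETD8 (gene KMT5A). The members were chosen by location alone, as every gene that the annotation places on chromosome M. They comprise 13 protein-coding genes, 2 ribosomal RNA (rRNA) genes and 22 transfer RNA (tRNA) genes, out of 57820 genes in the count tables. SY5Y is an established neuroblastoma line without MYCN amplification, and the study compared inhibitor-treated with vehicle-treated cells to see which transcripts respond. The study states that compounds of this family also inhibit other methyltransferases at low micromolar concentrations. Both groups were collected at 12 h, one treated with the solvent DMSO and the other with SGSS05-NS at 3 µM per the labels, with 2 biological replicates each. The study's methods name a lower dose for this line than the labels do, while the legend of its expression heatmap for this line gives 3 µM. The series title names the compound SGSS05-NS3, while the study's discussion lists SGSS05-NS among related compounds.

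Mitochondrial DNA is read from both strands as long precursor RNAs. The heavy-strand promoter gives a precursor that holds both rRNAs, 12 of the protein-coding genes and most tRNAs. The light-strand promoter gives a precursor that holds the mRNA of MT-ND6, the remaining tRNAs and long stretches without genes. Below, an mRNA stands for a single protein-coding gene, also where genes overlap. POLRMT is the polymerase, TFAM and TFB2M load it on the promoters, and RNase P and ELAC2 cut out the tRNAs that separate most of the other genes. The mRNAs encode core subunits of the respiratory chain and of ATP synthase, and LRPPRC with SLIRP keeps most of them stable. In these strand-specific libraries, the sense count of a gene is the number of fragments (read pairs) on its own strand, and the opposite-strand count is the number on the other strand.

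Genes on this chromosome touch or overlap, which decides how fragments were counted, so the junctions that the results turn on are shown first. Positions are those of GRCh37 with GENCODE release 44, read 5′ to 3′ on the strand given. The 46 bases in capitals below belong to both MT-ATP8 (ATP synthase membrane subunit 8) and MT-ATP6 (the proton channel subunit), and the 7 bases in capitals of the next belong to both MT-ND4L and MT-ND4 (membrane subunits of complex I). A fragment that reaches into a second gene of the same strand was counted for neither.
MT-ATP8/MT-ATP6 overlap, chrM:8512-8587, plus strand: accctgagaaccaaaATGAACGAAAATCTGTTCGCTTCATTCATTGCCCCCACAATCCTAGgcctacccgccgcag
MT-ND4L/MT-ND4 overlap, chrM:10745-10781, plus strand: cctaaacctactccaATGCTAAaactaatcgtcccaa

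The ends of the mRNA genes show how closely the genes are packed. Of 13 mRNA genes, 6 ended in T or TA instead of a whole stop codon. In the next lines the last bases of the gene that stand for a stop are in capitals and the lower-case bases after them lie outside it. MT-CO1 and MT-TS1 abut on opposite strands, and so do MT-ND5 and MT-ND6, whose opposite-strand counts are given further on.
MT-CO1 end, plus strand: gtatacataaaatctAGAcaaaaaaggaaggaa
MT-ND4 end, plus strand: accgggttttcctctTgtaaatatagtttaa
MT-CYB end, plus strand: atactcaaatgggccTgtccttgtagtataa
MT-ND5 end, plus strand: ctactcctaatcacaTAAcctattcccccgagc
MT-ND6 end, minus strand: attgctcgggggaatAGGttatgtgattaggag

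Gene totals of sense fragments were between 21463105 and 25350204 per library. Of the genes chosen to check the treatment, CDKN1A, MDM2 and KMT5A were higher with SGSS05-NS (log2 fold changes from 0.57 to 4.68). Of 13 markers of the neuroblastoma lineage 12 were tested. By edgeR's quasi-likelihood test 9 were lower and 0 higher at an adjusted p under 0.001, beside 8.14% and 6.37% of all genes tested. Over all 13, summed levels were 3870 and 4158 CPM (fragment counts scaled by library size with TMM) in DMSO and 2360 and 2139 CPM with SGSS05-NS. Markers of leukocytes, epithelium, endothelium and fibroblasts summed to between 5.67 and 7.52 CPM in all libraries. Whether the shift in lineage markers bears on the mitochondrial genes was not tested, and in RNA from whole cultures fewer cells of a kind and less RNA per cell cannot be told apart. The labels do not say what separates the replicates beyond their number, so the p-values measure only the spread between these libraries.

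Transcripts of the mitochondrial chromosome made up 0.598% and 0.454% of all gene counts with DMSO and 0.639% and 0.664% with SGSS05-NS. Both SGSS05-NS libraries were thus above both DMSO libraries, and the DMSO libraries lay further apart from each other than the SGSS05-NS libraries did. The means were 0.526% ± 0.101 and 0.651% ± 0.0175 (SD, n = 2 each), and the exact two-sided permutation test gave p = 0.333, the smallest that 2 against 2 libraries allow. The difference of 0.125 percentage points was 0.197 without DMSO replicate 1 and 0.0537 without DMSO replicate 2. As a share of uniquely mapped fragments the values were 0.483% and 0.367% against 0.491% and 0.516%, a difference of 0.0783 percentage points. Fragments not on the sense strand of any annotated exon, opposite-strand fragments included, were 12.4% and 12.3% of all fragments against 16.1% and 15.3%. The 13 mRNAs accounted for 0.479% and 0.373% of gene counts in DMSO and for 0.509% and 0.511% with SGSS05-NS. For the 2 rRNAs, the sense shares were 0.117% and 0.0809% against 0.129% and 0.152%.

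Of the 37 genes, 18 had enough sense counts to be tested, namely the 13 mRNA genes, both rRNA genes and 3 tRNA genes. By edgeR's quasi-likelihood test, adjusted after Benjamini and Hochberg across 16468 genes, 6 of the 18 were higher with SGSS05-NS at an adjusted p under 0.001 and 0 were lower. Over all genes tested, 6.37% were higher and 8.14% lower at that threshold, 14.5% in either direction. The 6 were MT-ND1, MT-ND2, MT-ND4 and MT-ND5 of complex I, MT-ATP6 of complex V and MT-RNR2, the large rRNA. At an adjusted p under 0.05, the counts were 9 higher and 1 lower, where 22.6% of all genes were higher and 23.7% lower. At an unadjusted p under 0.05 there were 12, a count for which the share of all genes is not given here. The median log2 fold change of the 13 mRNAs was 0.51, that of the 7 complex I mRNAs 0.67 and that of the 3 complex IV mRNAs 0.03, beside 0.01 over all genes tested.

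**Figure D1:**
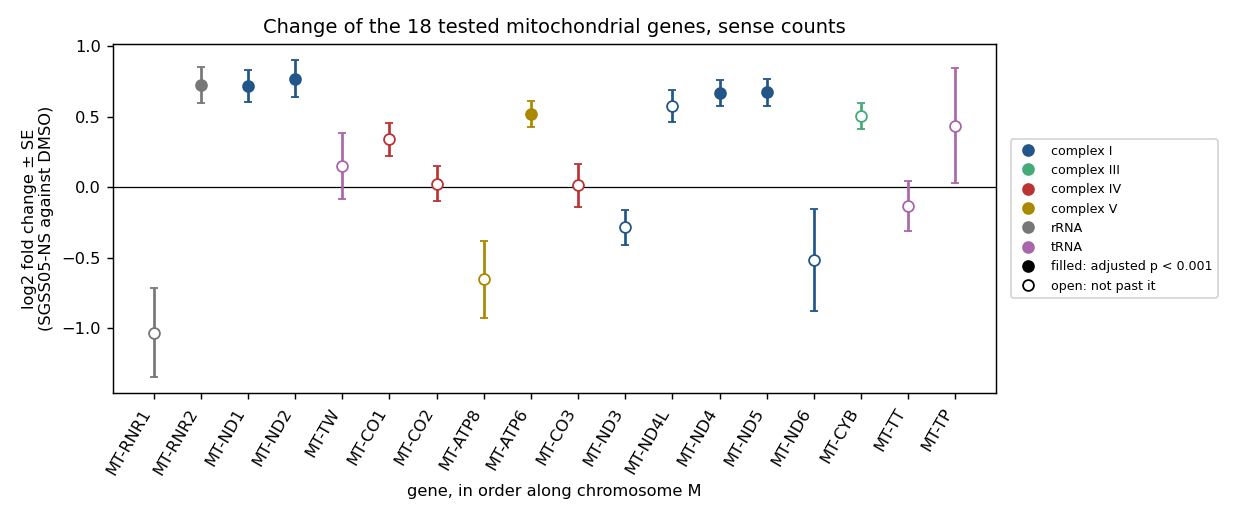
Log2 fold change of SGSS05-NS against DMSO with its standard error (vertical axis) for the 18 mitochondrial genes tested, in order along the chromosome (horizontal axis), coloured by complex or RNA class, with filled points at an adjusted p under 0.001. Of the filled points, 4 are complex I genes between 0.67 and 0.77, the complex IV genes lie between 0.01 and 0.34, and MT-RNR1 lies lowest at -1.03.

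Complex I, the NADH dehydrogenase that feeds electrons into the chain, has 7 mitochondrially encoded subunits, and 4 of them rose. MT-ND4 (ENSG00000198886.2, chrM:10760-12137), a proton-pumping subunit, was counted with 4077 and 3948 fragments in DMSO and 5827 and 6210 with SGSS05-NS. Scaled, these were 162 and 169 CPM against 262 and 264 CPM, so that the replicates lay close together and the conditions well apart. Its log2 fold change was 0.67 ± 0.091 (SE, n = 2 each, adjusted p = 1.2e-04). MT-ND5 (ENSG00000198786.2, chrM:12337-14148), the longest mRNA gene and another pumping subunit, had 1759 and 1841 fragments against 2528 and 2903. Its levels of 70.0 and 78.7 CPM in DMSO and 114 and 123 CPM with SGSS05-NS did not overlap, and its log2 fold change was 0.67 ± 0.099 (adjusted p = 2.1e-04). MT-ND4 and MT-ND5 kept their calls in all 10 other settings and with any 1 library left out.

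MT-ND1 and MT-ND2 sit together behind the rRNAs. For MT-ND1 (ENSG00000198888.2, chrM:3307-4262), a subunit at the quinone site, 1576 and 1553 fragments were counted in DMSO and 2641 and 2206 with SGSS05-NS. In CPM these were 62.7 and 66.4 against 119 and 93.7, with both SGSS05-NS libraries higher and more spread. The log2 fold change was 0.72 ± 0.12 (adjusted p = 4.0e-04), and scaling by library size only moved the adjusted p to 0.0011. For MT-ND2 (ENSG00000198763.3, chrM:4470-5511), another pumping subunit, the counts were 795 and 770 against 1413 and 1098. Here too SGSS05-NS replicate 1 was the highest library, and the log2 fold change of 0.77 ± 0.13 (adjusted p = 6.6e-04) became 0.52 without it (adjusted p = 0.0011). The call on MT-ND2 was also lost with limma voom, with library size only and when strand was ignored.

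The other complex I genes did not pass the threshold. MT-ND4L, whose last bases overlap MT-ND4, was counted with 651 and 698 fragments against 871 and 1036, a log2 fold change of 0.58 ± 0.11 (adjusted p = 0.0015), with no overlap between the conditions. MT-ND3, by contrast, had 1944 and 1453 fragments in DMSO and 1401 and 1213 with SGSS05-NS, and its log2 fold change was -0.29 ± 0.13 (adjusted p = 0.082), and it ranged from -0.13 without DMSO replicate 1 (adjusted p = 0.52) and -0.15 without SGSS05-NS replicate 2 to -0.45 without DMSO replicate 2 (adjusted p = 0.0066) or without SGSS05-NS replicate 1. The CPM values of MT-ND3 overlapped between the conditions. MT-ND6, the only mRNA of the light strand, is described with that strand.

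Complex IV (cytochrome c oxidase) has the most abundant mitochondrial mRNAs, and 0 of its 3 passed the threshold. MT-CO1 (ENSG00000198804.2, chrM:5904-7445), the catalytic subunit, had 44817 and 34314 fragments in DMSO and 43246 and 51066 with SGSS05-NS. After scaling, 1784 and 1467 CPM stood against 1946 and 2169 CPM, without overlap, and the log2 fold change was 0.34 ± 0.12 (adjusted p = 0.029). Without DMSO replicate 2 it was 0.19 (adjusted p = 0.37). MT-CO2, which accepts electrons from cytochrome c, had 17981 and 12488 fragments against 14209 and 14915, and both SGSS05-NS libraries lay between the DMSO libraries. MT-CO3, a structural subunit, showed the same arrangement, with 42800 and 26418 against 30543 and 34964. Their log2 fold changes were 0.03 ± 0.13 (adjusted p = 0.88) and 0.01 ± 0.15 (adjusted p = 0.95), and both turned slightly negative when strand was ignored or no filter was applied. DMSO replicate 1 held 1704 CPM of MT-CO3 and DMSO replicate 2 held 1129 CPM, a spread within the vehicle group that is wider than the distance between the 2 means (1417 and 1430 CPM).

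Of complex V (ATP synthase), MT-ATP6 (ENSG00000198899.2, chrM:8527-9207) had 2187 and 2032 fragments in DMSO and 2905 and 2797 with SGSS05-NS. The DMSO libraries were nearly equal at 87.1 and 86.9 CPM, and the SGSS05-NS libraries reached 131 and 119 CPM. Its log2 fold change was 0.52 ± 0.094 (adjusted p = 8.9e-04), close to the threshold. Leaving out DMSO replicate 1, DMSO replicate 2 or SGSS05-NS replicate 1 moved its adjusted p to between 0.0020 and 0.0029. MT-ATP8, which shares its end with MT-ATP6 as printed above, had 54 and 69 fragments against 30 and 44, the opposite direction, with a log2 fold change of -0.65 ± 0.27 (adjusted p = 0.069). Fragments that reach from MT-ATP8 into MT-ATP6 are missing from these counts, so whether the RNA of MT-ATP8 moved apart from that of MT-ATP6 was not tested. Complex III is represented by MT-CYB (ENSG00000198727.2, chrM:14747-15887), cytochrome b, with 2636 and 2569 fragments against 3534 and 3436. Its conditions did not overlap, and its log2 fold change of 0.51 ± 0.094 had an adjusted p of 0.0011, just short of the call. In all, 8 mRNAs were higher in both SGSS05-NS libraries than in either DMSO library and 1 was lower, while 37.8% of all genes tested were higher without overlap and 36.9% lower, 74.7% in all.

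**Figure D2:**
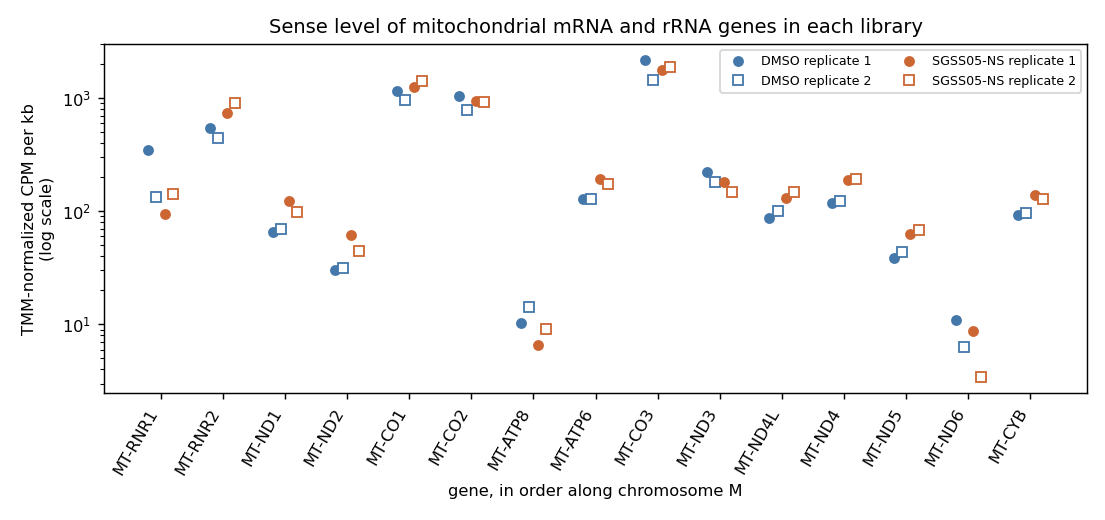
Sense level of the 15 mRNA and rRNA genes in order along the chromosome (horizontal axis), as TMM-normalized CPM per kb on a log axis (vertical axis), with 1 point per library. MT-CO3 is highest and MT-ND6 lowest in mean level in both conditions, and the blue DMSO points of MT-RNR1 lie far apart. Levels of the rRNA genes are those left after rRNA depletion.

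Levels of different genes were compared per kilobase of gene. The libraries had been depleted of rRNA per the study's methods. Levels of MT-RNR1 and MT-RNR2 are therefore those left after that step, and their places do not rank them against mRNAs in the cells. With DMSO, MT-CO3 led with 1807 CPM per kb, followed by MT-CO1 (1054), MT-CO2 (914), MT-RNR2 (496), MT-RNR1 (240) and MT-ND3 (202). MT-CO1 and MT-CO2 overlapped in that order, as did MT-RNR1 and MT-ND3. With SGSS05-NS, the first 4 places were the same, with 1824, 1334, 930 and 821 CPM per kb, and MT-ND4 came next at 191 (120 in DMSO). MT-ND3 followed in place 7 at 166 CPM per kb and MT-RNR1 in place 10 at 118, overlapping MT-CYB above it and MT-ND1 below it. MT-ATP8 and MT-ND6 were the lowest in both conditions, with 12.3 and 8.67 CPM per kb in DMSO and 7.77 and 6.11 with SGSS05-NS, and they overlapped each other. MT-ATP8 is 207 bases long and shares 46 of them with MT-ATP6. Fragments that reach both were counted for neither, while the whole length was the divisor. Its level per kb may therefore be too low, and its place does not show that its RNA is scarce. Between MT-CO3 and MT-ND6, means of mRNAs cut from the same chromosome thus spanned 1807 to 8.67 CPM per kb in DMSO. Among all genes, ordered by CPM and not by length, MT-CO1 ranked 35 in DMSO and 22 with SGSS05-NS, MT-CO3 45 and 41, and MT-RNR2 116 and 51.

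Seen as parts of the mRNA pool, complex I mRNAs were 9.02% and 11.7% of all fragments on the 13 mRNAs in DMSO and 13.5% and 12.1% with SGSS05-NS. Complex IV mRNAs were 87.0% and 83.0% against 80.6% and 82.8%. In both cases the conditions did not overlap but DMSO replicate 2 lay closer to the SGSS05-NS libraries than to DMSO replicate 1 (exact two-sided permutation p = 0.333 each). The summed level of complex I mRNAs was 436 and 442 CPM in DMSO and 665 and 625 CPM with SGSS05-NS, whereas complex IV mRNAs summed to 4204 and 3130 against 3960 and 4287 CPM, with overlap.

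**Figure D3:**
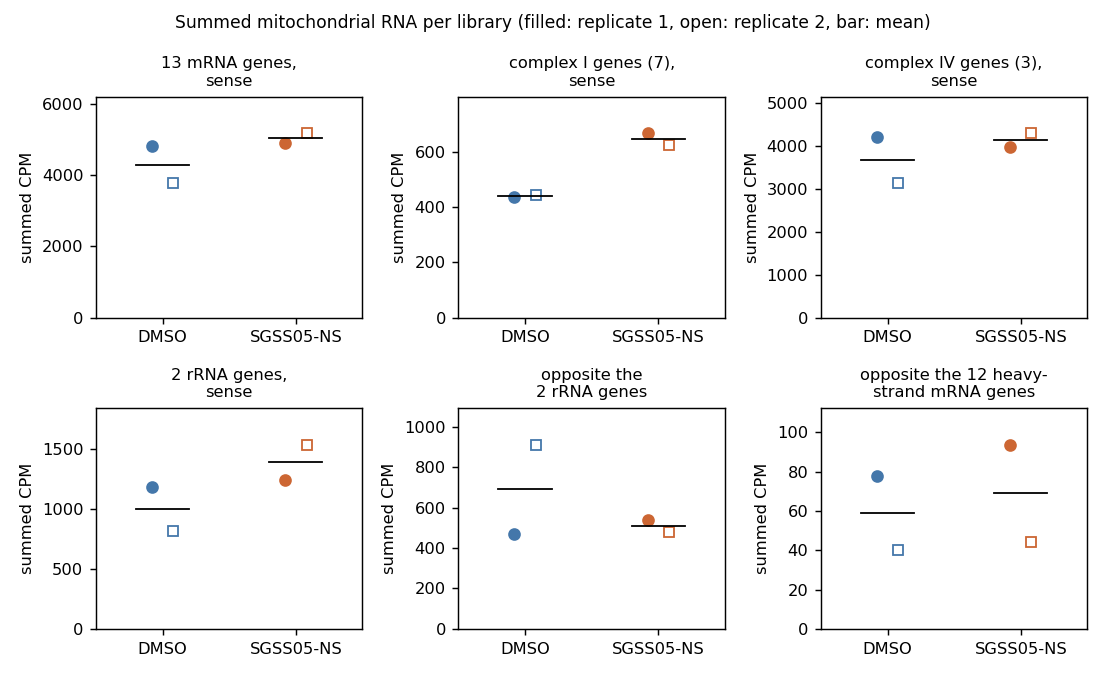
Summed TMM-normalized CPM (vertical axis, from 0) of 6 groups of mitochondrial RNA in DMSO and SGSS05-NS libraries (horizontal axis), with filled points for replicate 1, open points for replicate 2 and a bar for the mean. Complex I mRNAs separate the conditions (436 and 442 against 665 and 625), while RNA opposite the 12 heavy-strand mRNA genes separates the replicate numbers (77.5 and 93.6 against 40.1 and 44.4).

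Of the 2 rRNAs, MT-RNR2 rose and MT-RNR1 did not pass the threshold. MT-RNR2 (ENSG00000210082.2, chrM:1671-3229), the RNA of the large mitochondrial ribosomal subunit, was counted with 21435 and 16202 fragments in DMSO and 25653 and 33059 with SGSS05-NS. That corresponds to 853 and 693 CPM against 1154 and 1404 CPM, with no overlap and a log2 fold change of 0.73 ± 0.13 (adjusted p = 6.3e-04). Without DMSO replicate 2 the value was 0.56 (adjusted p = 0.0016), and with strand ignored it was 0.30 (adjusted p = 0.040). MT-RNR1 (ENSG00000211459.2, chrM:648-1601), the RNA of the small subunit, had 8333 and 2967 fragments in DMSO and 1985 and 3175 with SGSS05-NS. Only DMSO replicate 1, at 332 CPM, stood apart, since DMSO replicate 2 held 127 CPM and the SGSS05-NS libraries held 89.3 and 135 CPM. The log2 fold change of -1.03 ± 0.32 (adjusted p = 0.019) was -0.19 without DMSO replicate 1 (adjusted p = 0.30) and -1.58 without DMSO replicate 2 (adjusted p = 3.8e-29). MT-RNR1 was 27.99% and 15.48% of the sense rRNA fragments in DMSO and 7.18% and 8.76% with SGSS05-NS. The libraries were depleted of rRNA per the study's methods, and how that step acted on each mitochondrial rRNA in each library was not tested. Cytosolic rRNA genes held between 60 and 91 fragments per library.

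Opposite-strand fragments were a large part of the rRNA signal. At MT-RNR2 there were 9566 and 17220 opposite-strand fragments in DMSO and 9576 and 9125 with SGSS05-NS, which is 30.9% and 51.5% against 27.2% and 21.6% of both strands. At MT-RNR1 the shares were 21.0% and 58.0% in DMSO and 54.7% and 40.9% with SGSS05-NS. Across nuclear genes, by comparison, the opposite strand held 4.57% to 5.02%, a little more in each SGSS05-NS library than in either DMSO library. DMSO replicate 2 had the highest count at both rRNA genes, and the log2 fold changes of the opposite-strand counts, -0.38 ± 0.20 at MT-RNR1 and -0.45 ± 0.20 at MT-RNR2 (adjusted p = 0.15 and 0.088), became 0.19 and 0.10 without it. Scaled by the opposite-strand column itself they were -0.68 and -0.75 (adjusted p = 0.0067 and 0.0027).

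The light strand was read through its own genes and through the RNA opposite the heavy-strand genes. MT-ND6 (ENSG00000198695.2, chrM:14149-14673, minus strand), a membrane subunit of complex I, had 145 and 78 sense fragments in DMSO and 103 and 42 with SGSS05-NS. Its levels were 5.77 and 3.33 CPM against 4.64 and 1.78 CPM, so the conditions overlapped and replicate 1 was the higher library in each. The log2 fold change was -0.52 ± 0.36 (adjusted p = 0.26), and it was 0.02 without SGSS05-NS replicate 2 and -1.36 without SGSS05-NS replicate 1. The 9 light-strand genes together held 198 and 96 sense fragments in DMSO and 153 and 66 with SGSS05-NS, or 0.131% and 0.0892% against 0.112% and 0.0417% of the sense fragments on the chromosome. On the log2 scale, light-strand over heavy-strand sense fragments was -9.58 and -10.13 in DMSO and -9.81 and -11.23 with SGSS05-NS. The difference of the means, -0.66, was -0.39 without DMSO replicate 1, 0.047 without SGSS05-NS replicate 2 and -1.38 without SGSS05-NS replicate 1.

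Opposite the 12 heavy-strand mRNA genes lay 1947 and 937 fragments in DMSO and 2080 and 1045 with SGSS05-NS, counted here as light-strand RNA. These were 77.5 and 40.1 CPM against 93.6 and 44.4 CPM, so that the libraries fell apart by replicate number and not by condition. At 9 of these 12 genes both replicate 1 libraries had a higher opposite-strand share than both replicate 2 libraries. At 1 of the 12 the conditions did not overlap in that share. These genes share the same libraries and are not independent, and the same counts over nuclear genes are not given here. What a replicate number stands for is not given in the labels. The share was highest at MT-ND5 (25.2% and 14.7% in DMSO, 21.4% and 9.56% with SGSS05-NS) and MT-CYB (17.4% and 7.79% against 12.2% and 6.45%). It was 1.97% to 3.92% at MT-ND4, 1.65% to 4.95% at MT-ND1 and 3.35% to 9.76% at MT-ND2, and 0.208% to 0.584% at the 3 complex IV genes, whose sense levels are the highest. At MT-ND6 itself, the opposite strand, here the heavy strand, held 53.2% and 59.6% of fragments in DMSO and 58.1% and 77.4% with SGSS05-NS. How many opposite-strand fragments came from sense RNA whose strand was misassigned in library preparation was not tested.

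In opposite-strand counts 18 of the 37 members were tested, and 0 passed an adjusted p under 0.001 in edgeR's quasi-likelihood test, where 7.28% of 7200 rows passed (5.53% higher, 1.75% lower). At an unadjusted p under 0.05 there were 6, and the likelihood ratio test called 1, without a share of all rows to set beside either. At an adjusted p under 0.05 there were 1 higher (27.8% of all rows) and 2 lower (7.49%). These counts were scaled as the sense counts were, and the median log2 fold change over all opposite-strand rows was 0.33, against which the members are to be read. The 1 higher was MT-TS1, with 1085 and 835 fragments on the strand of its abutting neighbour MT-CO1 in DMSO and 1228 and 1321 with SGSS05-NS. Its log2 fold change was 0.50 ± 0.12 (adjusted p = 0.0040), and 0.20 (adjusted p = 0.17) when scaled by the opposite-strand column itself. The 2 lower were MT-TP, with 673 and 626 against 478 and 506 fragments (log2 fold change -0.32 ± 0.11, adjusted p = 0.036), and MT-TA, with 14 and 10 against 5 and 3 (-1.47 ± 0.50, adjusted p = 0.030). Scaled by the opposite-strand column, MT-TP was at -0.61 with an adjusted p of 2.6e-04, past the threshold.

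Transfer RNA genes held almost no sense counts. They are 59 to 75 bases long, shorter than the reads that the study's methods describe. A fragment that reaches into a neighbour on the same strand was counted for neither gene. The counts below may therefore not stand for tRNA levels. Of 22 tRNA genes, 9 had 0 fragments in every library, where a count of 0 allows up to 3 fragments or 0.118 to 0.140 CPM per library, and 10 more had at most 11 fragments in any library. The 3 that were tested were MT-TW, MT-TT and MT-TP, the tRNAs for tryptophan, threonine and proline, shown here with the tRNAs for serine and tyrosine that were counted mainly on their opposite strand.
MT-TW, chrM:5512-5579, plus strand: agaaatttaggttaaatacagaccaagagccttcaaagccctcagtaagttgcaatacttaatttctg
MT-TT, chrM:15888-15953, plus strand: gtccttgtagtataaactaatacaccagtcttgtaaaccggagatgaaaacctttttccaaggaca
MT-TP, chrM:15956-16023, minus strand: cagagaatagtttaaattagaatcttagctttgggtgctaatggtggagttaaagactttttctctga
MT-TS1, chrM:7446-7514, minus strand: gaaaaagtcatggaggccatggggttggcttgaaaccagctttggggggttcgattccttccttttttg
MT-TY, chrM:5826-5891, minus strand: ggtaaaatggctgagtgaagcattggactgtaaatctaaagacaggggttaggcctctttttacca
MT-TT, which begins at the base after MT-CYB ends, had 162 and 149 fragments in DMSO and 142 and 125 with SGSS05-NS (log2 fold change -0.13 ± 0.18, adjusted p = 0.56). MT-TW, which follows MT-ND2 in the same way, had 66 and 49 against 61 and 59, and MT-TP had 33 and 15 against 40 and 21. The conditions overlapped for all 3, and 0 of them passed edgeR's test (adjusted p from 0.40 to 0.63). On the opposite strand, MT-TY had 340 and 314 fragments in DMSO and 269 and 203 with SGSS05-NS (log2 fold change -0.38 ± 0.15, adjusted p = 0.056), and the opposite strand held 98.9% or more of its fragments in every library. Its value was -0.68 when scaled by the opposite-strand column (adjusted p = 0.0015), -0.16 without SGSS05-NS replicate 2 and -0.65 without SGSS05-NS replicate 1.

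Copies of mitochondrial DNA in the nuclear chromosomes share sequence with these genes, and a fragment that maps equally well to both is not counted. In GRCh37, 9.32% of all 100-base windows of chromosome M had an exact nuclear copy, and chromosome 1 held 21 exact runs of up to 279 bases. MT-CO1 was the most exposed, with 27.9% of its windows, followed by MT-ND2 (26.1%), MT-RNR1 (21.2%), MT-ATP6 (11.9%), MT-ND1 (10.97%), MT-CO3 (4.67%) and MT-CO2 (2.39%). MT-RNR2, MT-ND4, MT-ND5, MT-CYB and MT-ND6 had 0%. The counts of the former genes may therefore be too low, in every library alike as far as the sequence goes. Per the study's methods the reads were paired and longer than these windows, so the window shares may overstate how many fragments were lost. Over the 13 mRNAs the share of copied windows had a Spearman rho of 0.36 with the DMSO level per kb and of 0.32 with the log2 fold change, given as a description of genes that share a chromosome and libraries.

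Some nuclear copies are annotated as genes of their own. Of 394 such genes 7 were tested, and 3 were lower and 0 higher at an adjusted p under 0.001, beside 8.14% and 6.37% of all genes tested. MTCO3P12 had 270 and 214 fragments in DMSO and 76 and 76 with SGSS05-NS (log2 fold change -1.58 ± 0.18, adjusted p = 3.2e-05). MTCO2P12 had 264 and 229 against 104 and 110 (-1.12 ± 0.16, adjusted p = 1.8e-04), and MTCO1P12 had 562 and 534 against 299 and 331 (-0.72 ± 0.12, adjusted p = 5.0e-04). All 394 together held 1534 and 1423 fragments in DMSO and 940 and 931 with SGSS05-NS, few beside the 73220 to 105598 fragments on the 3 complex IV mRNAs themselves.

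Nuclear genes that make, cut, modify and translate mitochondrial RNA were counted as a comparison. Of 99 listed genes 97 were tested, 1 was higher and 1 lower at an adjusted p under 0.001, where 6.37% and 8.14% of all genes tested were, and their median log2 fold change was 0.02. At an adjusted p under 0.05 there were 18 higher and 15 lower, beside 22.6% and 23.7% of all genes. RRM2B, a subunit of the ribonucleotide reductase that supplies nucleotides for mitochondrial DNA, had 757 and 667 fragments in DMSO and 1316 and 1096 with SGSS05-NS (log2 fold change 0.85 ± 0.12, adjusted p = 1.7e-04). METTL15, which methylates the small mitochondrial rRNA, had 588 and 497 against 243 and 254 (-1.04 ± 0.13, adjusted p = 5.1e-05). The conditions did not overlap for either gene.

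By role, 0 of 11 transcription genes passed the threshold, among them POLRMT (log2 fold change -0.01), TFAM (0.18, adjusted p = 0.15), TFB2M (0.01) and the elongation factor TEFM (-0.16). Of 14 genes of mitochondrial DNA replication, RRM2B was the 1 called, and the polymerase POLG was at 0.48 (adjusted p = 0.0021). TWNK, which is also on the transcription list, was at 0.18 (adjusted p = 0.14). Among 25 genes of RNA processing and decay 0 were called, with LRPPRC at -0.19, SLIRP at -0.12, ELAC2 at -0.21, the RNase P subunit TRMT10C at 0.11 and the exonuclease PNPT1, which degrades mitochondrial RNA, at -0.35 (adjusted p = 0.013). SUPV3L1 was at 0.23 (adjusted p = 0.094). METTL15 was the 1 called among 20 genes of RNA modification, and 0 of 16 translation factors were. Of 12 nuclear regulators tested, 0 were called, with NRF1, an activator of nuclear genes for mitochondrial proteins, at -0.49 (adjusted p = 0.0036), and NFE2L2, the oxidative stress regulator, at 0.71 (adjusted p = 0.0011). PPARGC1A, the coactivator of mitochondrial biogenesis, had too few counts to be tested.

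**Figure D4:**
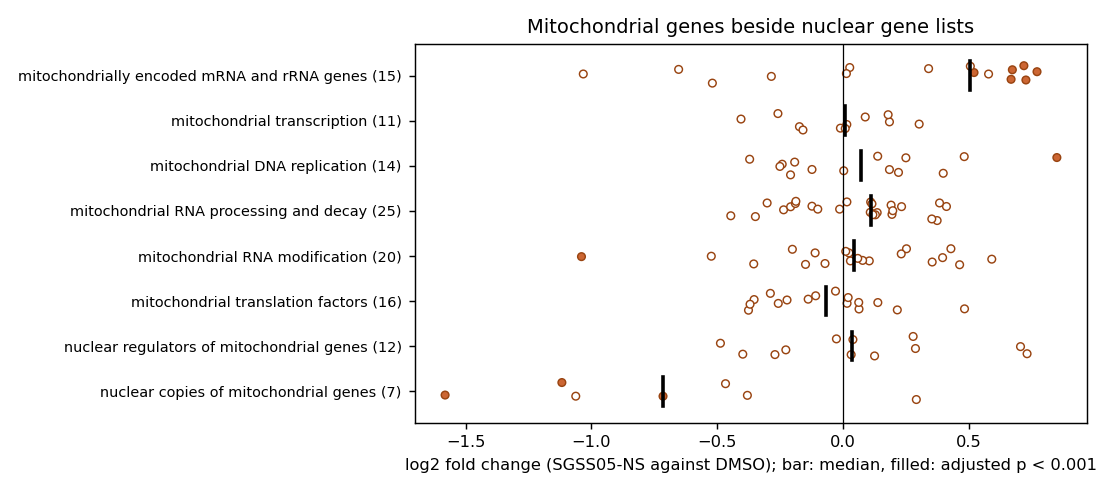
Log2 fold change of SGSS05-NS against DMSO (horizontal axis) for every tested gene of the 15 mitochondrial mRNA and rRNA genes and of 7 nuclear gene lists (vertical axis, with the number tested), with a bar at the median and filled points at an adjusted p under 0.001. Mitochondrial genes hold 6 filled points, all higher, the nuclear copies hold 3, all lower, and the other lists have medians between -0.07 and 0.11.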

How the data were processed

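RNA of 4 libraries was analysed, 2 per condition, grouped by the sample labels. Per the labels and methods, Trimmomatic 0.30 and STAR 2.4.2a (hg19) were run on the reads, and the authors deposited raw counts per gene, unstranded and by strand. The kit is named as TruSeq RNA in the labels and as a stranded total RNA kit with rRNA removal in the methods. Reverse-stranded counts were used as sense. edgeR 4.0.16 in R 4.3.3 was run with filterByExpr, TMM, the quasi-likelihood test and Benjamini-Hochberg adjustment, with the study's threshold of 0.001. A standard error is the log2 fold change divided by the square root of F. Opposite-strand counts were scaled by the sense library sizes. Intervals are exact binomial at 95% and, like the limit of 3 counts, cover counting error only. The members and lists, including the genes named, were chosen with earlier results of these data known. Genes named are all mRNA and rRNA members, tested tRNAs, called genes of the mitochondrial lists, genes to check the treatment, fixed core factors and NFE2L2. Which mitochondrial sequence the authors' genome held is not given in the sources used here. On simulated counts of this comparison (16087 genes), 79.5% of 195 changed genes were recovered with 0 false calls. On opposite-strand counts (6727 genes) 58.2% of 184 were recovered, with 2 false calls. In sense counts, 69.1% of genes set to change 2-fold and 89.8% of those set to change 4-fold were recovered. In opposite-strand counts these values were 34.4% and 82.4%. Recovery of genes that change less than 2-fold, as the called mitochondrial genes did, was not tested. Alternatives were the edgeR likelihood ratio test, DESeq2 1.42.0, limma voom 3.58.1, other scalings and filters, strand ignored, a replicate block and each library left out. The result of 1 gene chosen to check the treatment is not reported here.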

Additional observations from a re-analysis of the deposited data

How the results depend on the processing

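Of mitochondrial genes, 6 were called higher and 0 lower in sense counts. With library size only, and with counts without regard to strand, 3 were called higher, against 8 with the likelihood ratio test and with DESeq2 and 9 with no filter. Shares of all genes called in these other settings are not given here. The lower count was 1 with no filter, with strand ignored and at an adjusted p under 0.05. With a library left out, 5 to 7 were higher and 0 to 1 lower, the 1 being MT-RNR1 without DMSO replicate 2. The lone library of a condition was then assumed to vary like the others. Opposite-strand calls, 0 in each direction, became 1 higher with no filter, with the likelihood ratio test and at 0.05, and 0 to 4 with a library left out. The lower calls became 1 when scaled by the opposite-strand column (MT-TP) and with no filter (MT-RNR2), 2 at 0.05, and 0 to 2 with a library left out. Nuclear genes of mitochondrial gene expression, 1 higher and 1 lower, became 7 and 3 with the likelihood ratio test, 5 and 5 with no filter, and 18 and 15 at 0.05. DESeq2 gave 3 higher and ignoring strand 2 higher, and leaving out a library gave 2 to 3 higher and 1 to 2 lower. The median log2 fold change of the 13 mRNAs, 0.51, was 0.54 with library size only, 0.48 with no filter, 0.42 with strand ignored, and 0.44 to 0.50 with a library left out. With a library left out, the difference in the share of gene counts ranged from 0.0537 to 0.197 percentage points and that of the light-strand to heavy-strand ratio from -1.38 to 0.047. The cause of these changes was not tested. Over the sense counts of 16468 genes, same-numbered libraries deviated with a correlation of 0.0526. The numbers were therefore not taken to pair the libraries, although fragments opposite the heavy-strand mRNA genes split by number. With the replicate number as a block, 8 mitochondrial genes were higher and 0 lower, and 7 and 2 of the nuclear list, and MT-ND6 in sense counts was at -0.55 (adjusted p = 0.036, from 0.26).

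Changes of sign touched values that did not pass the threshold with all libraries. With a library left out some passed it, and MT-CYB on the opposite strand did so in both directions, at 0.79 (adjusted p = 5.4e-04) without DMSO replicate 1 and -0.65 (adjusted p = 7.1e-04) without SGSS05-NS replicate 1. In sense counts, MT-CO2 was -0.001 with no filter and -0.012 with strand ignored, MT-CO3 -0.014 and -0.024 in the same settings, and MT-TP -0.44 with strand ignored. With a library left out, MT-CO2 ranged from -0.19 to 0.24, MT-CO3 from -0.27 to 0.33, MT-ND6 from -1.36 to 0.02, MT-TP from -0.15 to 1.05 and MT-TW from -0.021 to 0.32. In opposite-strand counts scaled by their own column, MT-CO2 was -0.27, MT-CYB -0.27, MT-ND5 -0.051 and MT-ND6 -0.17, and with the block MT-ND1 was 0.003. With a library left out, opposite-strand values ranged from -0.29 to 1.498 at MT-ATP6, -0.10 to 0.95 at MT-CO1, -0.53 to 0.84 at MT-CO2, -0.25 to 0.99 at MT-CO3, -0.65 to 0.79 at MT-CYB, -0.63 to 0.92 at MT-ND1, -0.59 to 0.71 at MT-ND2, -0.032 to 0.98 at MT-ND4, -0.51 to 0.73 at MT-ND5, -0.066 to 0.35 at MT-ND6, -0.80 to 0.19 at MT-RNR1, -0.85 to 0.10 at MT-RNR2 and -0.12 to 1.15 at MT-TQ. The low fragment counts at MT-ATP8, MT-ND6 and the tRNAs limit what can be seen there.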
